A study of Mus musculus with 2 samples.

Results

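Type 2 conventional dendritic cells (cDC2) were picked by their transcripts from the cells of mouse liver tumours, 379 of 18786 cells in all. They numbered 255 of 9174 cells in the tumours of Crtc2-/- mice and 124 of 9612 cells in those of Crtc2+/+ mice. A cell was a member if its raw UMIs (unique molecular identifiers, each standing for a captured RNA molecule) included at least 1 for Cd209a or Clec10a and at least 1 for Flt3. Members also had at most 1 UMI of Xcr1 and Clec9a together, no UMI of Siglech, Cd79a, Cd3d, Cd3e or Cd3g, at most 9 UMIs of C1qa, C1qb and C1qc together, and not both Ccr7 and Fscn1. These limits use measured values, so the genes in them are described here and support nothing.

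The Crtc2-/- mice lack Crtc2, a coactivator of the transcription factor CREB, and were set against Crtc2+/+ mice, with 1 single-cell library for each genotype. Mice of both genotypes received the liver carcinogen diethylnitrosamine by intraperitoneal injection, 25 mg/kg at 2 weeks of age, and ate a diet that produces non-alcoholic steatohepatitis from week 8 to week 26. Liver tumours were then dissociated, and 3' RNA tags were counted per cell. How many mice and tumours each library pools, and which stretch of Crtc2 is deleted and in which cells, was not stated in the labels.

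Conventional dendritic cells take up antigen in tissues and show it to T cells. Type 2 cells depend on the growth factor receptor FLT3, carry the lectins CD209a and CLEC10A and the surface protein SIRPa, and present antigen on MHC class II mainly to CD4+ T cells. Type 1 cells (cDC1), marked by XCR1 and CLEC9A, cross-present to CD8+ T cells, and either kind can mature into CCR7+ cells that migrate to lymph nodes. In an inflamed liver, monocytes recruited from blood can acquire some of the same genes, which makes the border between cDC2 and monocytes a soft one.

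The members were deeply covered. They held 3049227 UMIs in the Crtc2-/- and 1518815 in the Crtc2+/+ library. The median cell had 10963 UMIs and 3265 genes in Crtc2-/-, against 11846.5 UMIs and 3353 genes in Crtc2+/+ members. Mitochondrial transcripts made up a median of 1.47% in Crtc2-/- and 1.41% in Crtc2+/+ members. The libraries shared 29 barcodes, of which 0 belonged to a member. Levels are given as CPM, the gene's UMIs scaled to all UMIs of the summed members, with exact 95% Poisson intervals. A log2 ratio sets Crtc2-/- over Crtc2+/+, with 10 CPM added to both levels, which understates low genes. Cells of 1 library are not replicates, so no difference below has a replicate check or a test, intervals cover counting error only, and genotype cannot be told apart from the animals or tumours sampled.

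Crtc2 itself was scarce in these cells. It was counted 14 times in Crtc2-/- members and 13 times in Crtc2+/+ members, 4.59 CPM (2.51 to 7.70) in Crtc2-/- against 8.56 CPM (4.56 to 14.6) in Crtc2+/+. The ratio was 0.536, with a counting interval from 0.234 to 1.24 that includes 1. The gene (ENSMUSG00000027936, protein-coding) lies on chromosome 3, 90254163 to 90264125, plus strand, in GRCm38. A 3' tag outside the deleted stretch would not test the genotype label, and at this depth the members cannot show loss of the transcript.

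The rule required Flt3 and at least 1 UMI of Cd209a or Clec10a, so these markers, and the sum that includes them, are high by choice. Cd209a, which encodes a C-type lectin related to DC-SIGN, was at 957 CPM in Crtc2-/- members and 625 CPM in Crtc2+/+ members. Clec10a, a galactose-type lectin gene, was at 321 CPM in Crtc2-/- and 170 CPM in Crtc2+/+ members, and Flt3 at 305 CPM in Crtc2-/- and 237 CPM in Crtc2+/+ members. Napsa, an aspartic protease gene that the rule did not use, was seen in 253 of 255 Crtc2-/- members and in 123 of 124 Crtc2+/+ members, at 794 CPM in Crtc2-/- and 863 CPM in Crtc2+/+. Summed over these 4 markers, members had 2376 CPM in the Crtc2-/- and 1895 CPM in the Crtc2+/+ library, cDC1 had 903 CPM in Crtc2-/- and 777 CPM in Crtc2+/+, and T cells 103 CPM in Crtc2-/- and 34.3 CPM in Crtc2+/+. Clec10a was also at 303.1 CPM in Crtc2-/- and 237 CPM in Crtc2+/+ plasmacytoid dendritic cells, and Cd209a at 196 CPM in Crtc2-/- and 91.3 CPM in Crtc2+/+. Napsa is not private to dendritic cells here: after thinning every cell to 2000 UMIs, 72.9% of Crtc2-/- and 76.4% of Crtc2+/+ members carried it, as did 54.0% of Crtc2-/- and 56.7% of Crtc2+/+ B cells.

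Markers of other cell types were seen in the members too, those of monocytes at the highest sum. Some are limited by the rule itself, Xcr1 directly and Fscn1 in cells with Ccr7, so their low level follows from it at least in part. Xcr1 was at 0.656 CPM in Crtc2-/- and 1.32 CPM in Crtc2+/+ members, against 350.04 CPM in Crtc2-/- and 415 CPM in Crtc2+/+ cDC1. Fscn1, which marks mature dendritic cells, was at 1.31 CPM in Crtc2-/- and 1.98 CPM in Crtc2+/+, against 2092 CPM in Crtc2-/- and 2055 CPM in Crtc2+/+ mature dendritic cells. All 18 monocyte markers were detected in both genotypes, none at 0, and summed to 7812 CPM in Crtc2-/- and 5295 CPM in Crtc2+/+ members, against 34538 CPM in Crtc2-/- and 29795 CPM in Crtc2+/+ classical monocytes. Per cell, that sum ran from 948 to 60256 CPM in Crtc2-/- and from 590 to 47152 CPM in Crtc2+/+ members. Of the 15 hepatocyte markers, 14 were seen in Crtc2-/- and 15 in Crtc2+/+ members, summing to 504 CPM in Crtc2-/- and 1009 CPM in Crtc2+/+, and the highest 26 Crtc2-/- cells held 79.1% and the highest 13 Crtc2+/+ cells 88.4% of these UMIs. Macrophage markers (14 of 15 in each genotype, Gpnmb at 0) summed to 1056 CPM in Crtc2-/- and 1110 CPM in Crtc2+/+ members, against 23089 CPM in Crtc2-/- and 41429 CPM in Crtc2+/+ macrophages. Of 11 cDC1 markers, 11 were seen in Crtc2-/- and 10 in Crtc2+/+ members, summing to 679 CPM in Crtc2-/- and 995 CPM in Crtc2+/+, against 7150.3 CPM in Crtc2-/- and 7356 CPM in Crtc2+/+ cDC1. Of 10 plasmacytoid markers, 9 were seen in Crtc2-/- and 8 in Crtc2+/+ members, summing to 748 CPM in Crtc2-/- and 762 CPM in Crtc2+/+. The heat map of markers shows these patterns by cell class.

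**Figure D1:**
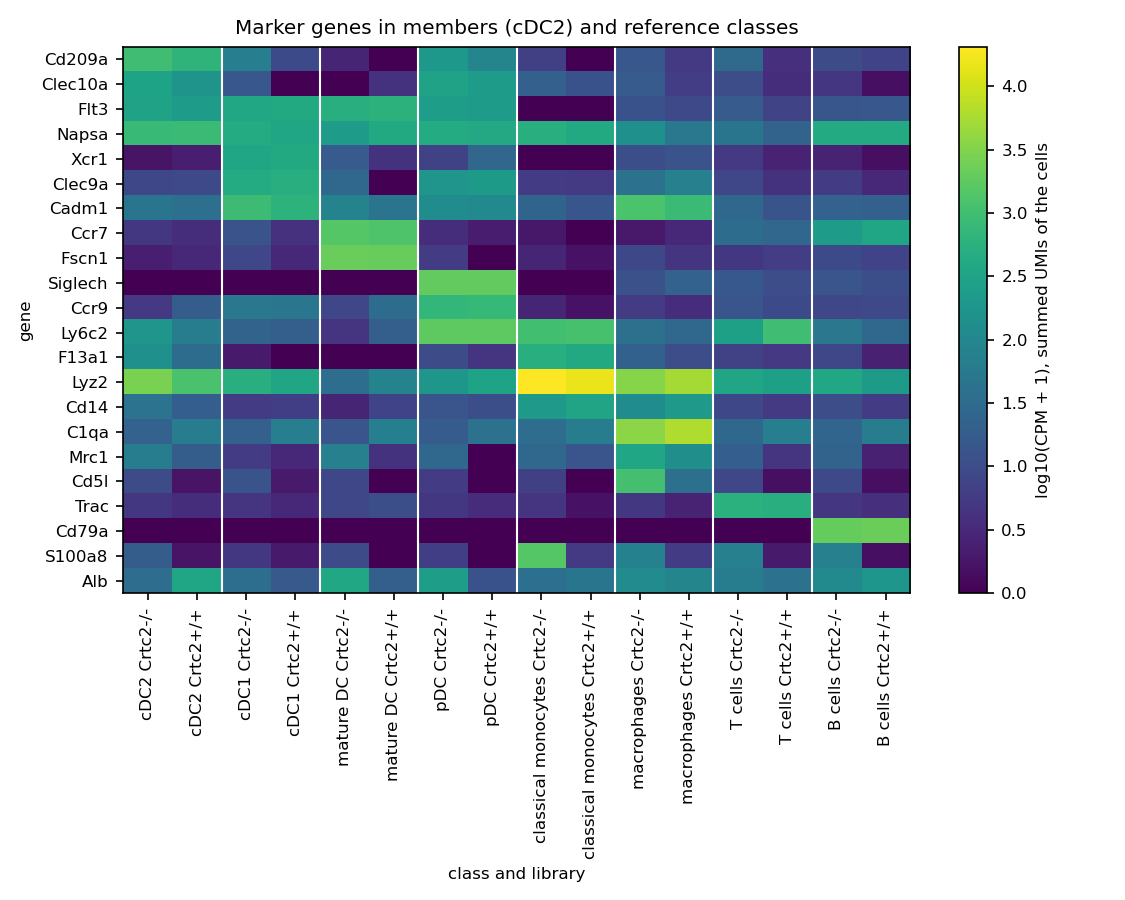
Marker genes (rows) in the summed members and in 7 other cell classes of each library (columns, Crtc2-/- left of Crtc2+/+ in each pair), coloured by log10 of CPM plus 1. Cd209a reached 957 CPM in Crtc2-/- and 625 CPM in Crtc2+/+ members, while Xcr1, Cd79a and, in cells with Ccr7, Fscn1 are limited by the rule and lie at or near 0 there, and Lyz2 was seen in members, monocytes and macrophages.

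Cells on either side of a limit of the rule were close in some genes and apart in others. Just inside the lectin limit, 22 Crtc2-/- and 24 Crtc2+/+ members had exactly 1 UMI of Cd209a and Clec10a together, and just outside it 116 Crtc2-/- and 75 Crtc2+/+ cells met all other limits with 0. Napsa was at 826 CPM in Crtc2-/- and 857 CPM in Crtc2+/+ inside and at 612 CPM in Crtc2-/- and 827 CPM in Crtc2+/+ outside. Lyz2, the lysozyme gene of monocytes and macrophages, was at 9407 CPM in Crtc2-/- and 2363 CPM in Crtc2+/+ inside and at 7415 CPM in Crtc2-/- and 4147 CPM in Crtc2+/+ outside. At the Flt3 limit, 50 Crtc2-/- and 40 Crtc2+/+ members had 1 UMI, and 131 Crtc2-/- and 60 Crtc2+/+ cells with 0 lay outside. Napsa was at 724 CPM in Crtc2-/- and 871 CPM in Crtc2+/+ inside against 433 CPM in Crtc2-/- and 537 CPM in Crtc2+/+ outside. Lyz2 there was at 6366 CPM in Crtc2-/- and 1133 CPM in Crtc2+/+ inside, against 9089 CPM in Crtc2-/- and 9737 CPM in Crtc2+/+ outside. At the other edges, 25 Crtc2-/- and 14 Crtc2+/+ members had 1 UMI of Xcr1 and Clec9a, and 5 Crtc2-/- cells and 1 Crtc2+/+ cell with 2 were left out. A single UMI of Cd3d, Cd3e or Cd3g left out 39 Crtc2-/- and 7 Crtc2+/+ cells that met all other limits, a single Siglech UMI 16 Crtc2-/- and 9 Crtc2+/+ cells, and a single Cd79a UMI 5 Crtc2-/- and 0 Crtc2+/+ cells. Napsa was at 828 CPM in the Crtc2-/- and 567 CPM in the Crtc2+/+ cells left out by Cd3 genes.

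Members made up a larger share of the Crtc2-/- library, by an amount that depended on the denominator. They were 2.78% (2.45 to 3.14, exact binomial interval) of Crtc2-/- cells and 1.29% (1.07 to 1.54) of Crtc2+/+ cells, a ratio of 2.15. Macrophages, cells with at least 10 C1q UMIs, numbered 1515 in the Crtc2-/- and 4761 in the Crtc2+/+ library. With macrophages taken out of the total, the shares were 3.33% (2.94 to 3.76) in Crtc2-/- and 2.56% (2.13 to 3.04) in Crtc2+/+, a ratio of 1.30. Among cDC1, cDC2 and mature dendritic cells together, members were 59.0% (54.2 to 63.7) of 432 Crtc2-/- cells and 55.4% (48.6 to 62.0) of 224 Crtc2+/+ cells, intervals that overlap. The share also moved with the C1q limit. With no limit on C1q, 275 Crtc2-/- and 141 Crtc2+/+ cells met the rule and the ratio of shares was 2.04. At the other extreme, 126 Crtc2-/- and 31 Crtc2+/+ members had no C1q UMI at all, and with that limit the ratio was 4.26. C1qa was at 26.3 CPM in Crtc2-/- and 68.4 CPM in Crtc2+/+ T cells, which should lack it, and its part in the share was not tested.

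Few genes of the members passed a 2-fold difference. Of 9945 genes with at least 20 UMIs, 81 were at least 2-fold higher in Crtc2-/- members (0.814%) and 82 at least 2-fold lower (0.825%), and the median log2 ratio of all was 0.04, with 55.3% of the genes above 0. The named extremes come from 3199 eligible genes, of which 7 were 2-fold higher and 30 were 2-fold lower. Eligible genes reached 50 CPM and 10% of members in the higher genotype, and 20% of the level of whichever other cell class had most. The 12 lowest were Epcam, Ccl17, Qpct, Itgae, Ifit1, Axl, Rsad2, Ifit3, Actn1, Fosb, Cxcl10 and Ifit2. The 12 highest included F13a1, Cd7, Clec4a1, Grk5, Wfdc17, Arhgef18, Sirpb1c, Atp6v0a1, Fyb, Mlxip and Gng12. All 24, picked from these same counts, kept their direction under each of 11 other ways of choosing the members or scaling the counts. Some of these could not turn a sign. Changing the CPM added cannot, and a mitochondrial limit of 10% kept the same 255 Crtc2-/- and 124 Crtc2+/+ members. Of the 12 lowest, 7 stayed past 2-fold in members free of C1q UMIs. After thinning each cell to 2000 UMIs before applying the rule, 9 did. Of the 12 highest, 7 passed 2-fold as reported and 2 with 50 CPM added.

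**Figure D2:**
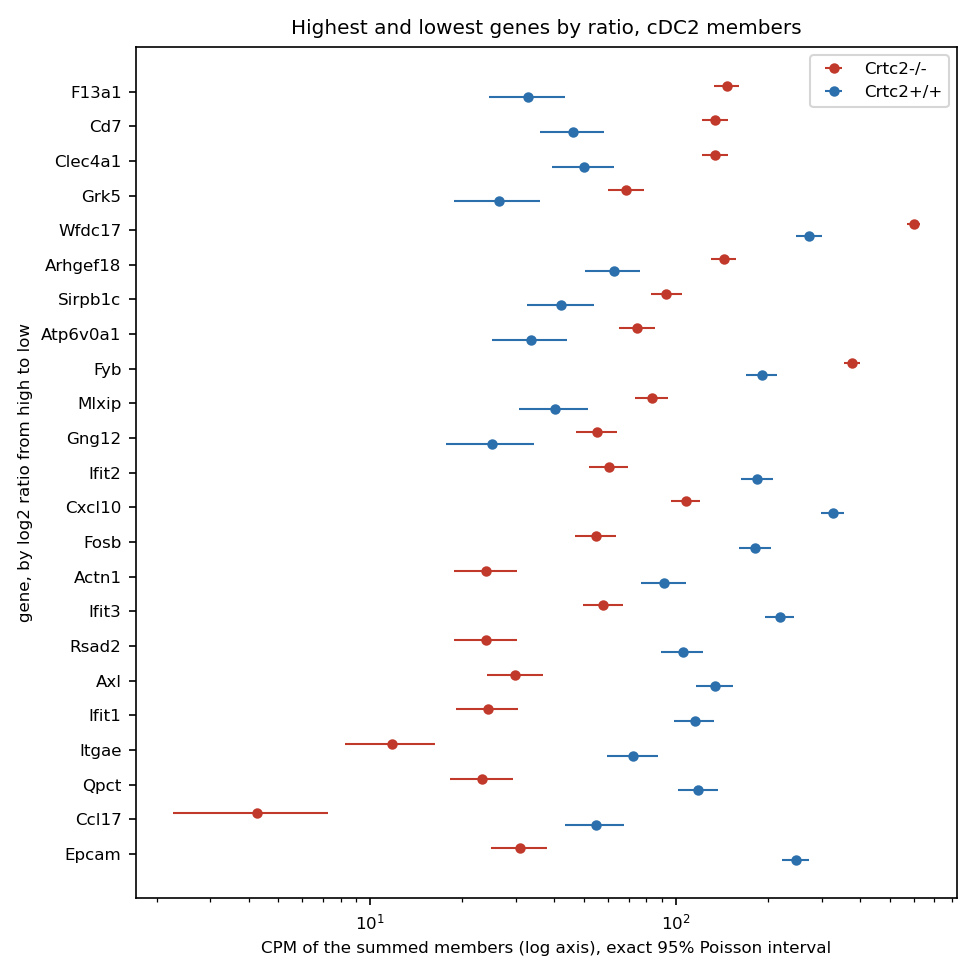
CPM of the named highest and lowest genes (rows, by log2 ratio) in the summed Crtc2-/- members (red, upper point of each row) and Crtc2+/+ members (blue, lower point), on a log axis with exact 95% Poisson intervals. The intervals of the genotypes do not overlap for any gene shown, but the genes were picked by their ratios in these same counts. The intervals cover counting error only and take no account of UMIs that lie together in a few cells. Epcam at the foot is at 30.8 CPM in Crtc2-/- and 246 CPM in Crtc2+/+ members, F13a1 at the top at 147 CPM in Crtc2-/- and 32.9 CPM in Crtc2+/+.

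The lowest ratio among the eligible genes was that of Epcam, which encodes an epithelial adhesion molecule that some dendritic cells, Langerhans cells among them, also carry. It was at 30.8 CPM (24.9 to 37.7) in Crtc2-/- and 246 CPM (222 to 273) in Crtc2+/+ members, a log2 ratio of -2.65, with UMIs in 49 of 255 Crtc2-/- and 63 of 124 Crtc2+/+ cells. Epcam (ENSMUSG00000045394) lies on chromosome 17, 87635979 to 87651129, plus strand. Itgae, which encodes the integrin CD103 and binds E-cadherin, was at 11.8 CPM (8.27 to 16.3) in Crtc2-/- and 72.4 CPM (59.5 to 87.3) in Crtc2+/+, log2 ratio -1.92. Qpct, a glutaminyl cyclase gene, was at 23.3 CPM in Crtc2-/- and 119 CPM in Crtc2+/+, and Axl, a receptor kinase gene for uptake of dying cells, at 29.8 CPM in Crtc2-/- and 134 CPM in Crtc2+/+ members. Itgae (chromosome 11, 73090583 to 73147446, plus strand) had 15 positive Crtc2-/- and 28 positive Crtc2+/+ cells, the highest of which held 16.7% of its UMIs in Crtc2-/- and 10% in Crtc2+/+. Axl was at 319 CPM in Crtc2-/- and 380 CPM in Crtc2+/+ macrophages, above the members.

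The log2 ratio of Epcam differed between groups of the members, some of which held few Epcam UMIs. Clustered among themselves they fell into 7 groups, and the 5 that had at least 10 cells of each genotype gave log2 ratios of Epcam of -0.98 in the group led by Spp1, -0.69 in that led by Clec10a, -0.06 in that led by Lyz2, -0.00 in that led by Cd7 and -4.67 in that led by mitotic genes. Epcam was at 5.72 CPM in Crtc2-/- and 389 CPM in Crtc2+/+ in the last of these. Its ratio rests on 10 Crtc2-/- and 4 Crtc2+/+ UMIs in the group led by Lyz2. In the group led by Cd7 it rests on 4 Crtc2-/- and 1 Crtc2+/+ UMIs. The 10 CPM added shrinks ratios at such levels, so these 2 groups are too sparse to show whether Epcam differed there. Itgae had 22 Crtc2-/- and 6 Crtc2+/+ UMIs in the group led by Spp1, at 24.5 CPM in Crtc2-/- and 19.6 CPM in Crtc2+/+, and 0 Crtc2-/- and 33 Crtc2+/+ UMIs in the mitotic one. The group led by Epcam itself held 4 Crtc2-/- and 31 Crtc2+/+ cells. The group led by Spp1 held 49 of the 94 Epcam UMIs of Crtc2-/- members and 36 of the 374 of Crtc2+/+ members. The Epcam group was formed by these genes, and its counts describe the same difference.

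A pair of TGF-beta signalling genes was lower as well. Tgfbr1, a receptor of this cytokine, was at 88.2 CPM (78.0 to 99.4) in Crtc2-/- and 271 CPM (246 to 299) in Crtc2+/+ members. Macrophages had more, at 505 CPM in Crtc2-/- and 1427 CPM in Crtc2+/+, with a difference of the same sign. Pmepa1, a feedback target of the pathway, was at 10.5 CPM in Crtc2-/- and 89.5 CPM in Crtc2+/+ members. T cells had 37.5 CPM in the Crtc2-/- and 92.7 CPM in the Crtc2+/+ library, so the member level in Crtc2+/+ was not above theirs. Macrophages had Pmepa1 at 9.89 CPM in Crtc2-/- and 690 CPM in Crtc2+/+. Neither Tgfbr1 nor Pmepa1 was an eligible gene, because members had too little beside Crtc2+/+ macrophages. The part of macrophage RNA in the members' values of both genes was not tested. Skil, which restrains SMAD proteins, was at 98.7 CPM in Crtc2-/- and 147 CPM in Crtc2+/+, whereas Tgfbr2 (105 CPM in Crtc2-/-, 107 CPM in Crtc2+/+), Smad7 (76.4 CPM in Crtc2-/-, 77.7 CPM in Crtc2+/+) and Tgfb1 (193 CPM in Crtc2-/-, 202 CPM in Crtc2+/+) were close. Of 17 measured genes of TGF-beta, Notch and Wnt signalling, 2 were 2-fold lower, 0 were 2-fold higher, and the median was -0.02. For all genes measured the shares were 0.825% 2-fold lower and 0.814% 2-fold higher. Among dendritic cell identity factors, Id2, a repressor of E proteins, was at 327 CPM in Crtc2-/- and 774 CPM in Crtc2+/+ and Runx3, a transcription factor of several lymphoid lineages, at 138 CPM in Crtc2-/- and 270 CPM in Crtc2+/+.

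Itgae and Qpct were seen more often in cells with an Epcam UMI, in both genotypes. Among Crtc2-/- members with an Epcam UMI, 16.3% had Itgae, 32.7% Qpct and 20.4% Axl, against 3.40%, 17.96% and 20.9% of those without. Among Crtc2+/+ members the figures were 39.7%, 73.0% and 71.4% with Epcam and 4.92%, 21.3% and 44.3% without. In Crtc2-/- members Axl and Tgfbr1 (44.9% with Epcam, 41.7% without) were seen about as often with Epcam as without, whereas in Crtc2+/+ members Tgfbr1 was seen in 82.5% with and 55.7% without. Summed over Epcam, Itgae, Qpct, Tgfbr1, Axl and Pmepa1, the median cell had 111 CPM in the Crtc2-/- and 591 CPM in the Crtc2+/+ library, and the 90th percentile was 510 CPM in Crtc2-/- and 2194 CPM in Crtc2+/+. Epcam is also a marker of bile duct cells. Of 6 such markers, 5 were detected in members of each genotype, Cldn7 being at 0 in Crtc2-/- and Krt19 at 0 in Crtc2+/+, and they summed to 85.9 CPM in Crtc2-/- and 747 CPM in Crtc2+/+ members. Most of that sum was Spp1, at 51.8 CPM in Crtc2-/- and 488 CPM in Crtc2+/+ members, and Epcam itself. Spp1 was also at 76.7 CPM in Crtc2-/- and 486 CPM in Crtc2+/+ T cells. The keratin genes were near 0, Krt19 at 0.328 CPM in Crtc2-/- and 0 CPM in Crtc2+/+ and Krt7 at 0.984 CPM in Crtc2-/- and 1.32 CPM in Crtc2+/+. Per cell the sum reached 2490.2 CPM in Crtc2-/- and 19779 CPM in Crtc2+/+ members, and the part of bile duct RNA in the Epcam values was not tested. Epcam in T cells was at 11.8 CPM in Crtc2-/- and 14.3 CPM in Crtc2+/+. These 6 genes were grouped after their values were seen.

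Type I interferon response genes were mostly lower in Crtc2-/- members. These genes are induced through the receptor IFNAR and hold back viruses. Of 29 measured, 25 were below 0, 7 of them at least 2-fold, none was 2-fold above, and the median was -0.48. Of all genes measured, 55.3% lay above 0, 0.825% were 2-fold lower and 0.814% 2-fold higher, and the median was 0.04. Ifit1, whose product binds viral RNA ends, was at 24.3 CPM (19.1 to 30.5) in Crtc2-/- and 115 CPM (98.8 to 134) in Crtc2+/+ members. Ifit3 was at 57.7 CPM (49.5 to 66.9) in Crtc2-/- and 219 CPM (196 to 244) in Crtc2+/+, Rsad2, which encodes viperin, at 23.9 CPM in Crtc2-/- and 105 CPM in Crtc2+/+, and Isg15, a ubiquitin-like modifier gene, at 101 CPM in Crtc2-/- and 294 CPM in Crtc2+/+. Ifi27l2a (501 CPM in Crtc2-/-, 433 CPM in Crtc2+/+) and Rtp4 (88.2 CPM in Crtc2-/-, 79.7 CPM in Crtc2+/+) lay on the other side. The receptor genes were not low: Ifnar1 was at 81.3 CPM in Crtc2-/- and 67.8 CPM in Crtc2+/+ and Ifnar2 at 275 CPM in Crtc2-/- and 215 CPM in Crtc2+/+.

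Promoter windows of 4 of these genes are shown because all 4 were lower in Crtc2-/- members and hold the interferon-stimulated response element. Windows are from RefSeq, build GRCm38.p6, 5' to 3' on the gene's strand, with matches on either strand in capitals, overlapping matches joined. A match is GAAA, any 2 bases, then GAAA. They lie at chr19:34640759-34640838 (plus) for Ifit1, chr19:34583359-34583438 (plus) for Ifit3, chr4:156200849-156200928 (minus) for Isg15 and chr12:26456523-26456602 (minus) for Rsad2.
Ifit1: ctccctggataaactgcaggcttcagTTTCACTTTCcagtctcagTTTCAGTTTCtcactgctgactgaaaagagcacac
Ifit3: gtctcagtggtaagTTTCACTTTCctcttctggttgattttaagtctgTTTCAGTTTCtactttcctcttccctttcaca
Isg15: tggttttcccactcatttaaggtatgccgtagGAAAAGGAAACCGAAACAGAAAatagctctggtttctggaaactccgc
Rsad2: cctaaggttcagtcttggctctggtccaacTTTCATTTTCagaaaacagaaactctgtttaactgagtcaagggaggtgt
The motif was found in the 250 bases before the start in 12 of the 22 list genes that had a promoter in the table (54.5%), against 2.98% of 32851 promoters. Genes with a match were not all lower, and some of the lower genes had none. Ifit2 (log2 ratio -1.47) and Isg20 (-1.36) lacked a match, while Trim30a (0.07), Stat2 (-0.02) and Slfn5 (-0.02) had one. A match is a description of letters, not a measured binding site.

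The interferon genes were spread unevenly over the cells. The median member had 2765 CPM of the summed list in the Crtc2-/- and 3087 CPM in the Crtc2+/+ library, and the 90th percentile 6577 CPM in Crtc2-/- and 9309 CPM in Crtc2+/+. The highest 26 Crtc2-/- cells held 28.2% of the list's UMIs in that genotype, and the highest 13 Crtc2+/+ cells 41.1%. In the 5 groups with at least 10 cells of each genotype, the log2 ratio of Ifit3 ran from -1.60 to 0.55. That of Isg15 ran from -1.58 to 1.30. The highest value rests on 35 Crtc2-/- and 4 Crtc2+/+ UMIs for Ifit3 and on 37 Crtc2-/- and 3 Crtc2+/+ UMIs for Isg15. With so few UMIs, whether either gene was lower throughout cannot be read. The group led by Ifit3 and Cxcl10, formed by these same genes, held 7 Crtc2-/- and 15 Crtc2+/+ cells. Ifit3 was lower in T cells too, at 41.0 CPM in the Crtc2-/- and 273 CPM in the Crtc2+/+ library, and the part of other cells' RNA in the members' values was not tested. With only the 126 Crtc2-/- and 31 Crtc2+/+ members free of C1q UMIs, the list's median was -0.13.

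**Figure D3:**
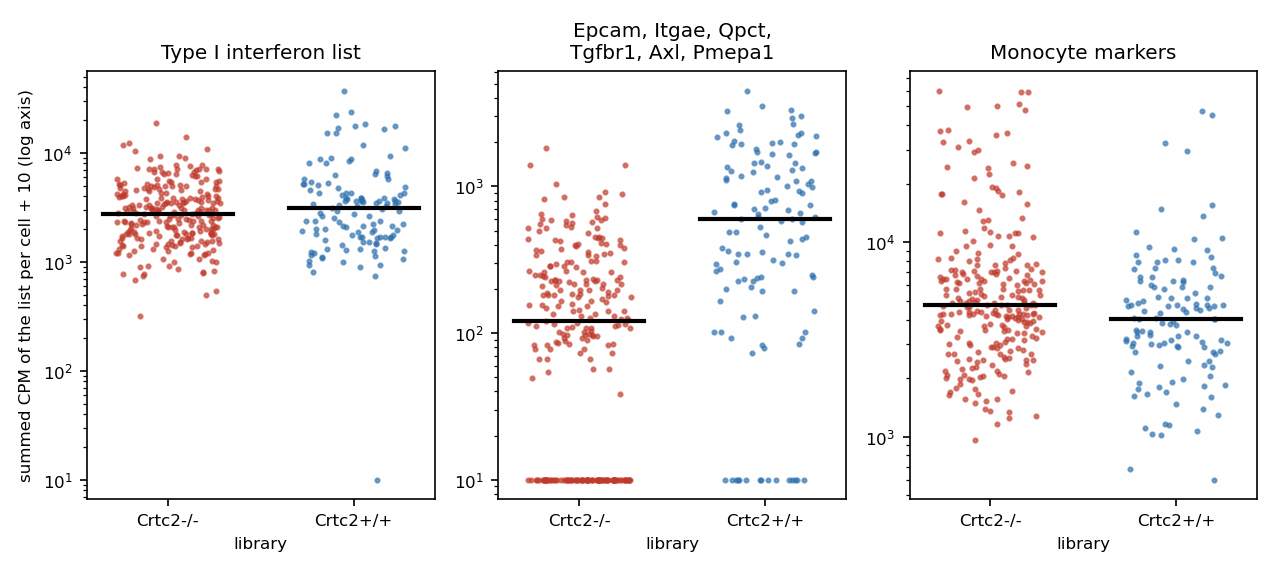
Summed CPM per member, plus 10, on log axes, for the type I interferon list, the 6 genes Epcam, Itgae, Qpct, Tgfbr1, Axl and Pmepa1, and the 18 monocyte markers; each point is a cell, Crtc2-/- left and Crtc2+/+ right, and the black bar is the median. Medians are 2765 CPM in Crtc2-/- and 3087 CPM in Crtc2+/+ for interferon genes, and 4732 CPM in Crtc2-/- and 4031 CPM in Crtc2+/+ for monocyte markers. For the 6 genes they are 111 CPM in Crtc2-/- and 591 CPM in Crtc2+/+. Those 6 were grouped after their values were seen, so their difference follows from the choice. The highest interferon cell, at 37222 CPM, is a Crtc2+/+ one.

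Chemokine genes differed in both directions. Of 12 measured, 9 were below 0, 2 of them at least 2-fold, and 1 was 2-fold above. All genes measured had 55.3% above 0, 0.825% 2-fold lower and 0.814% 2-fold higher. The chemokine median was -0.35, and 0.02 when the rule was applied at 2000 UMIs per cell. Ccl17, which attracts CCR4+ T cells, was at 4.26 CPM (2.27 to 7.29) in Crtc2-/- and 54.6 CPM (43.5 to 67.7) in Crtc2+/+ members. Only 5 Crtc2-/- and 14 Crtc2+/+ cells carried it, however, and 1 Crtc2+/+ cell held 43.4% of that library's UMIs. The log2 ratio of Ccl17 was -2.18, and -0.35 under that rule. Cxcl10, which attracts CXCR3+ T cells, was at 108 CPM in Crtc2-/- and 326 CPM in Crtc2+/+ from 23 Crtc2-/- and 24 Crtc2+/+ cells, and the top cell held 49.4% of its UMIs in Crtc2-/- and 34.7% in Crtc2+/+. Cxcl16, the ligand of CXCR6, was spread more evenly, at 85.9 CPM from 106 cells in Crtc2-/- and 180.4 CPM from 81 cells in Crtc2+/+ members. Ccl9 (294 CPM in Crtc2-/-, 161 CPM in Crtc2+/+) and Cxcl2 (29.2 CPM in Crtc2-/-, 4.61 CPM in Crtc2+/+) were higher in Crtc2-/-, the second with 56.2% of its UMIs in 1 cell.

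Receptors that guide these cells differed in both directions. Ccr2, which brings monocytes and cDC2 precursors out of the marrow, was at 585 CPM in Crtc2-/- and 384 CPM in Crtc2+/+. Itga4 was at 455 CPM in Crtc2-/- and 325 CPM in Crtc2+/+, and Cx3cr1 at 104 CPM in Crtc2-/- and 70.5 CPM in Crtc2+/+. Ccr1 was at 38.7 CPM in Crtc2-/- and 104 CPM in Crtc2+/+ members, and Gpr183, the oxysterol receptor that positions cDC2 in spleen, at 246 CPM in Crtc2-/- and 478 CPM in Crtc2+/+. Of 16 measured receptors, 2 were 2-fold lower and 0 were 2-fold higher, with a median of -0.04. Of 15 measured cytokine genes, 2 were 2-fold lower and 0 were 2-fold higher, with a median of -0.10. For all genes measured the shares were 0.825% 2-fold lower and 0.814% 2-fold higher. Il1b was at 799.5 CPM in Crtc2-/- and 1043 CPM in Crtc2+/+ and Tnf at 18.04 CPM in Crtc2-/- and 47.4 CPM in Crtc2+/+. The log2 ratio of Tnf was -1.03, and 0.08 in members free of C1q UMIs. Il12b, a subunit of interleukin-12, was at 0 in Crtc2-/- members against 44.8 CPM in Crtc2+/+ members, where 98.5% of its 68 UMIs came from 1 of 2 positive cells, so the difference rests on that cell.

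Genes shared with monocytes were higher in Crtc2-/- members. Of 18 monocyte markers, 17 lay above 0, beside 55.3% of all genes measured, and the median was 0.53. F13a1, which encodes a subunit of clotting factor XIII, was at 147 CPM (133 to 161) in Crtc2-/- and 32.9 CPM (24.4 to 43.4) in Crtc2+/+ members, from 46 Crtc2-/- and 6 Crtc2+/+ cells, with 56.0% of the Crtc2+/+ UMIs in 1 cell. It lies on chromosome 13, 36867178 to 37050244, minus strand. Ly6c2 was at 175 CPM in Crtc2-/- and 63.9 CPM in Crtc2+/+, below T cells with 283 CPM in Crtc2-/- and 989 CPM in Crtc2+/+, and Lyz2 at 2735 CPM in Crtc2-/- and 1192 CPM in Crtc2+/+. In Crtc2-/- members with an F13a1 UMI, 80.4% had Ly6c2 and 0 of 46 had Epcam, while of those without F13a1 19.6% had Ly6c2 and 23.4% had Epcam. Among members without a Ly6c2 UMI, 177 Crtc2-/- and 103 Crtc2+/+ cells, a choice made after seeing the data, the list's median was 0.10 and the log2 ratio of F13a1 was 0.57.

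Several lectins and other sensors of microbes were higher too. Of 25 measured pattern recognition genes, 18 were above 0, 3 at least 2-fold, none 2-fold below, with a median of 0.38. All genes measured had 55.3% above 0, 0.814% 2-fold higher and 0.825% 2-fold lower. Mrc1, the mannose receptor, was at 65.3 CPM (56.5 to 74.99) in Crtc2-/- and 17.8 CPM (11.7 to 25.9) in Crtc2+/+ members, a log2 ratio of 1.44 that was 0.72 under the rule at 2000 UMIs. Clec4a1 was at 134 CPM in Crtc2-/- and 50.04 CPM in Crtc2+/+ and Clec4a3 at 158 CPM in Crtc2-/- and 67.2 CPM in Crtc2+/+, both of the dendritic cell immunoreceptor cluster, where similar sequences may split reads. Macrophages of the Crtc2-/- library also had more, with Clec4a1 at 534 CPM in Crtc2-/- and 149 CPM in Crtc2+/+ and Clec4a3 at 860 CPM in Crtc2-/- and 254 CPM in Crtc2+/+, and the part of their RNA in the members' values was not tested. Among 6 Fc receptor genes, 5 were above 0 (median 0.35), with the inhibitory receptor gene Fcgr2b at 187 CPM in Crtc2-/- and 111 CPM in Crtc2+/+ and Fcgr1 on the other side at 55.8 CPM in Crtc2-/- and 74.4 CPM in Crtc2+/+. When the rule was applied after thinning each cell to 2000 UMIs, which left 131 Crtc2-/- and 39 Crtc2+/+ members, the median of the pattern recognition list was -0.06.

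Cd7 was higher in Crtc2-/- members. It encodes a surface protein of T cells, NK cells and some dendritic cells and was at 134 CPM (121 to 148) in Crtc2-/- and 46.1 CPM (35.9 to 58.2) in Crtc2+/+ members, from 125 Crtc2-/- and 28 Crtc2+/+ cells. T cells were at 192 CPM in Crtc2-/- and 70.6 CPM in Crtc2+/+, a difference of the same sign, while macrophages were at 3.21 CPM in Crtc2-/- and 1.68 CPM in Crtc2+/+. Wfdc17, which encodes a small secreted protein, was at 599 CPM in Crtc2-/- and 273 CPM in Crtc2+/+ members. Under the rule at 2000 UMIs per cell the log2 ratio of Cd7 was 0.32, in place of 1.36. Of 28 measured genes of dendritic cell identity, 14 lay on each side of 0. Irf4 (63.0 CPM in Crtc2-/-, 62.6 CPM in Crtc2+/+), Zbtb46 (129 CPM in Crtc2-/-, 133 CPM in Crtc2+/+) and Notch2 (173 CPM in Crtc2-/-, 169 CPM in Crtc2+/+), factors that build or mark cDC2, were at nearly equal levels.

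No measured antigen presentation gene of the lists passed 2-fold once 10 CPM was added. Only 0.814% of all genes measured were 2-fold higher and 0.825% 2-fold lower, so a count of 0 sets lists this short little apart. The 16 measured MHC class II genes had a median of -0.06. Without the added 10 CPM, the low gene H2-Eb2 was at 16.7 CPM in Crtc2-/- and 5.27 CPM in Crtc2+/+, a ratio of 3.18 with a counting interval from 1.496 to 7.75. H2-Ab1 was at 7085 CPM in Crtc2-/- and 8083 CPM in Crtc2+/+, Ciita, the master regulator of the class, at 368 CPM in Crtc2-/- and 344 CPM in Crtc2+/+, and H2-DMb2, which loads peptides, at 197 CPM in Crtc2-/- and 297 CPM in Crtc2+/+. MHC class I presentation had a median of 0.02 over 21 genes, 0 of them past 2-fold. Of 16 costimulatory and inhibitory ligand genes, 0 passed 2-fold with 10 CPM added. Cd274, which encodes PD-L1, was at 83.6 CPM (73.7 to 94.5) in Crtc2-/- and 38.8 CPM (29.6 to 50.1) in Crtc2+/+ members, not above T cells with 91.7 CPM in Crtc2-/- and 126 CPM in Crtc2+/+. Its ratio without the added 10 CPM was 2.15 (1.62 to 2.91). Pdcd1lg2, which encodes PD-L2, was at 9.18 CPM in Crtc2-/- and 1.98 CPM in Crtc2+/+, a ratio of 4.65 (1.44 to 23.9). Vsir, which encodes VISTA, was at 78.4 CPM in Crtc2-/- and 43.5 CPM in Crtc2+/+, Havcr2, which encodes TIM-3, at 112 CPM in Crtc2-/- and 209 CPM in Crtc2+/+, and Cd86 at 274 CPM in Crtc2-/- and 380 CPM in Crtc2+/+.

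Genes around CREB showed small differences. Of 28 measured members of the CRTC, CREB, SIK and cAMP list, 0 passed 2-fold, with a median of 0.05. Crtc3, the paralogue most expressed here, was at 82.6 CPM (72.8 to 93.5) in Crtc2-/- and 65.2 CPM (53.0 to 79.4) in Crtc2+/+ members, Crtc1 at 4.59 CPM in Crtc2-/- and 3.95 CPM in Crtc2+/+, and Creb1 at 108 CPM in Crtc2-/- and 96.1 CPM in Crtc2+/+. Genes known as targets of CREB or of NR4A factors were lower more often: 10 of 14 were below 0, 1 of them 2-fold, with a median of -0.40. Of all genes measured, 55.3% lay above 0, 0.825% were 2-fold lower and 0.814% 2-fold higher. Fosb, an AP-1 subunit, was at 54.8 CPM (46.8 to 63.7) in Crtc2-/- and 182 CPM (161 to 204) in Crtc2+/+ members. Fos was at 384 CPM in Crtc2-/- and 729.5 CPM in Crtc2+/+, Rgs2, which dampens G protein signals, at 389 CPM in Crtc2-/- and 695 CPM in Crtc2+/+, and the nuclear receptor genes Nr4a2 and Nr4a3 at 42.6 CPM in Crtc2-/- and 85.6 CPM in Crtc2+/+ and at 55.8 CPM in Crtc2-/- and 98.8 CPM in Crtc2+/+, with Nr4a1 (193 CPM in Crtc2-/-, 179 CPM in Crtc2+/+) near equal. T cells went the other way for Nr4a2, at 255 CPM in Crtc2-/- and 51.2 CPM in Crtc2+/+.

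The promoters of 3 of these genes, all lower in Crtc2-/- members, are shown. Capitals mark the CREB half-site TGACG with its reverse complement CGTCA or, for Dusp1, the full palindrome TGACGTCA. RefSeq windows on the gene's strand, GRCm38.p6, lie at chr7:19310066-19310145 (minus) for Fosb, chr4:48045065-48045164 (plus) for Nr4a3 and chr17:26508593-26508672 (minus) for Dusp1, a phosphatase gene at 240.4 CPM in Crtc2-/- and 386.5 CPM in Crtc2+/+.
Fosb: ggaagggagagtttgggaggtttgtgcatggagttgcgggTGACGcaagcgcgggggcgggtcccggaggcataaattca
Nr4a3: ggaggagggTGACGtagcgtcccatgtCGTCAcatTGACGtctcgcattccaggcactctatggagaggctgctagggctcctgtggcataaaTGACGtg
Dusp1: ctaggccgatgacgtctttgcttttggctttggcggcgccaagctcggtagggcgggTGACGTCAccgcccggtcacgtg
In the 250 bases before the start, TGACG was found in 9 of 10 target genes with a promoter in the table (90%), against 17.8% of 32851 promoters, and TGACGTCA in 2 of 10 (20%), against 1.55%. The full site holds the half-site, so the counts overlap. Genes with a site were not all lower. Areg, the other gene with the full site, had a log2 ratio of 0.58, and Nr4a1, with the half-site, 0.10. The remaining genes with the half-site were lower, as was Irs2 (-0.55), which lacked it.

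Immediate early genes, which also respond to tissue dissociation, were mostly lower. Of 25 measured AP-1, immediate early and heat shock genes, 21 were below 0, 2 at least 2-fold, with a median of -0.23. Among all genes measured, 55.3% lay above 0 and 0.825% were 2-fold lower. Egr1 was at 52.5 CPM in Crtc2-/- and 123 CPM in Crtc2+/+, Jun at 342 CPM in Crtc2-/- and 467 CPM in Crtc2+/+, and Btg2 at 711 CPM in Crtc2-/- and 1069.9 CPM in Crtc2+/+. The heat shock genes Hspa8 (1676 CPM in Crtc2-/-, 1729 CPM in Crtc2+/+) and Dnajb1 (44.6 CPM in Crtc2-/-, 35.5 CPM in Crtc2+/+) were closer. Egr1 turned direction under the rule at 2000 UMIs, with a log2 ratio of 0.22 in place of -1.09. Fosb went the other way in cDC1, at 128 CPM in the Crtc2-/- and 54.9 CPM in the Crtc2+/+ library.

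A few lipid genes were far higher in Crtc2-/- members. Fabp5, a fatty acid carrier gene, was at 88.2 CPM (78.0 to 99.4) in Crtc2-/- and 3.95 CPM (1.45 to 8.60) in Crtc2+/+ members, from 74 Crtc2-/- and 6 Crtc2+/+ cells. It was not an eligible gene, because members had under 20% of the level of another Crtc2-/- cell class. The part of other cells' RNA in its values was not tested. Fabp4 was at 78.1 CPM in Crtc2-/- and 9.88 CPM in Crtc2+/+, but 54.2% of its Crtc2-/- UMIs lay in 1 cell and T cells had 110 CPM in Crtc2-/- and 62.6 CPM in Crtc2+/+. Pparg, a factor that drives lipid uptake, was at 27.9 CPM in Crtc2-/- and 6.58 CPM in Crtc2+/+ from 28 Crtc2-/- and 4 Crtc2+/+ cells, and its log2 ratio of 1.19 was -0.27 under the rule at 2000 UMIs. Of 27 measured lipid genes, 3 were 2-fold higher and 0 were 2-fold lower (median 0.18), beside 0.814% and 0.825% of all genes measured. Cell cycle genes had 20 of 25 below 0, where 55.3% of all genes measured lay above 0. Their median of -0.24 was 0.96 in members free of C1q UMIs and 0.36 under the rule at 2000 UMIs. Mki67 was at 75.4 CPM in Crtc2-/- and 82.3 CPM in Crtc2+/+. Glycolysis, oxidative phosphorylation and DNA repair had medians of -0.10, -0.10 and -0.08, NF-kappaB and apoptosis 0.06 and 0.08, interferon gamma response genes 0.19 and cytokine receptors 0.08.

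**Figure D4:**
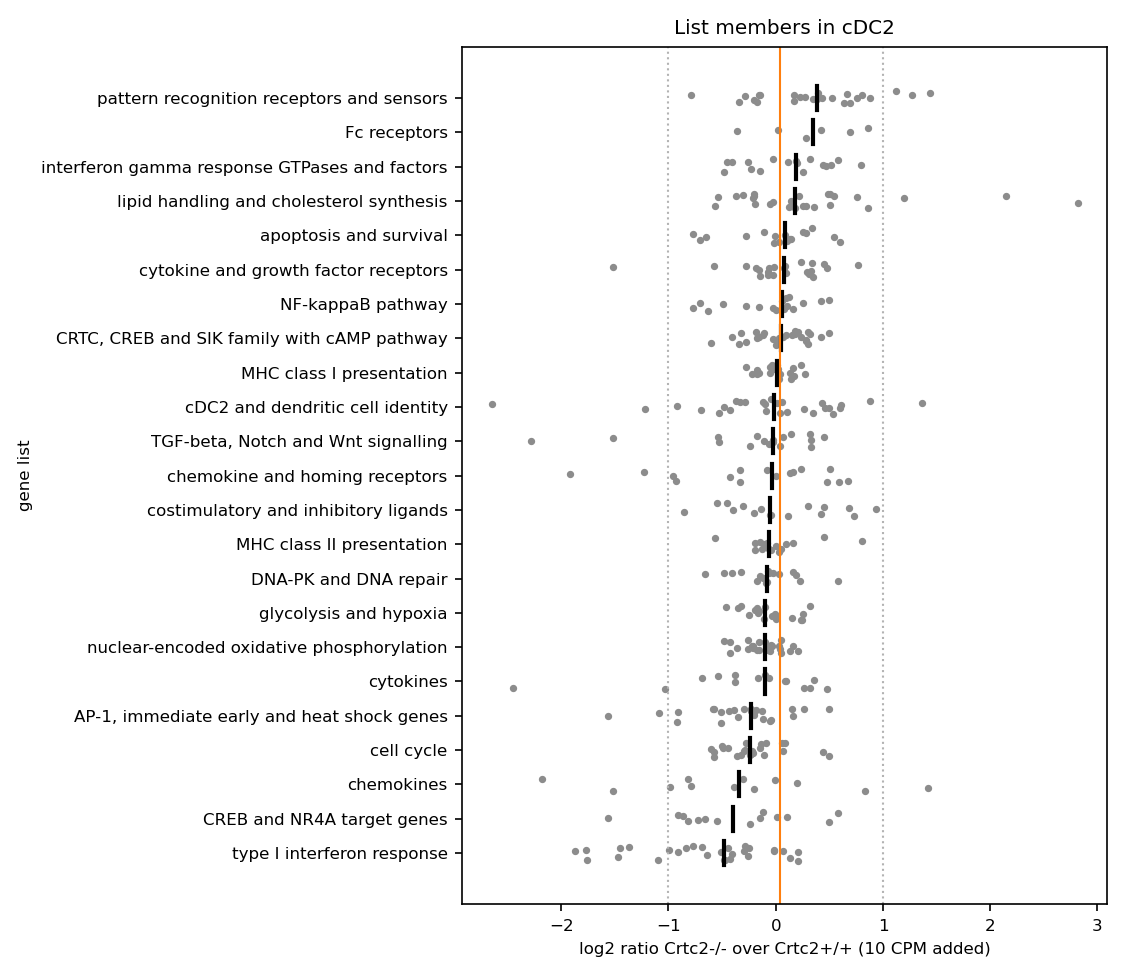
Log2 ratio (Crtc2-/- over Crtc2+/+, 10 CPM added) of every measured member of 23 gene lists, one grey point per gene, with the list median as a black bar; the orange line is the median of all genes (0.04) and dotted lines mark 2-fold. Pattern recognition genes stand at the top (median 0.38) and type I interferon genes at the foot (-0.48), with single far points such as Fabp5 (2.82) and Epcam (-2.65).

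Shares of members with a transcript were also read at a common depth. Thinning cells to 2000 UMIs left out 0 Crtc2-/- and 1 Crtc2+/+ member. Itgae was then seen in 0.392% (0.00993 to 2.17) of Crtc2-/- and 8.13% (3.97 to 14.4) of Crtc2+/+ members, against 5.31% of Crtc2-/- and 5.67% of Crtc2+/+ T cells. Median depths before thinning were 10963 UMIs in Crtc2-/- and 11909 UMIs in Crtc2+/+ members, and 4751.5 UMIs in Crtc2-/- and 4684.5 UMIs in Crtc2+/+ T cells. Ifit3 was seen in 8.63% (5.49 to 12.8) of Crtc2-/- and 21.1% (14.3 to 29.4) of Crtc2+/+ members, against 5.71% of Crtc2-/- and 25.9% of Crtc2+/+ T cells and 2.997% of Crtc2-/- and 3.27% of Crtc2+/+ B cells. Ccr2 was seen in 59.2% (52.9 to 65.3) of Crtc2-/- and 39.0% (30.4 to 48.2) of Crtc2+/+ members, against 12.995% of Crtc2-/- and 15.3% of Crtc2+/+ T cells. Clec10a, which the rule used, was seen in 34.1% of Crtc2-/- and 15.4% of Crtc2+/+ members. Sirpa (31.8% in Crtc2-/-, 25.2% in Crtc2+/+), Itgax (16.9% in Crtc2-/-, 18.7% in Crtc2+/+), Zbtb46 (20% in Crtc2-/-, 22.0% in Crtc2+/+) and Mki67 (7.84% in Crtc2-/-, 6.504% in Crtc2+/+) had overlapping intervals, as had Il1b (32.9% in Crtc2-/-, 43.1% in Crtc2+/+) and Cd86 (24.7% in Crtc2-/-, 32.5% in Crtc2+/+).

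**Figure D5:**
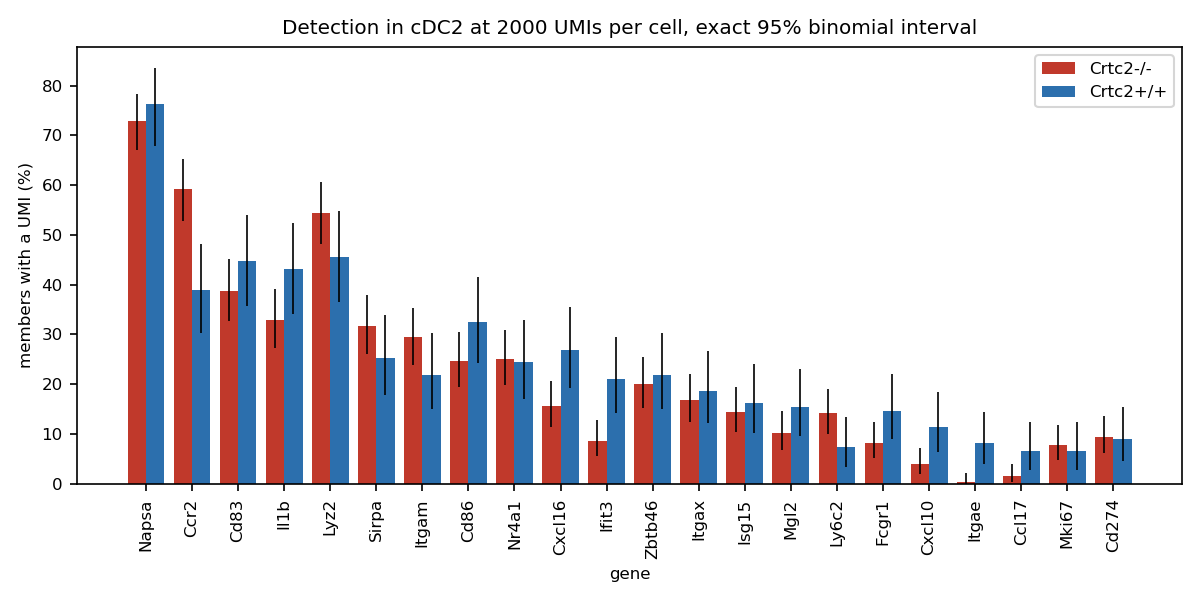
Share of members with at least 1 UMI of each gene after thinning to 2000 UMIs per cell, Crtc2-/- (red, left bar) and Crtc2+/+ (blue, right bar), with exact 95% binomial intervals. Ccr2 (59.2% in Crtc2-/-, 39.0% in Crtc2+/+), Ifit3 (8.63% in Crtc2-/-, 21.1% in Crtc2+/+) and Itgae (0.392% in Crtc2-/-, 8.13% in Crtc2+/+) stand apart, while Napsa, Zbtb46 and Itgax overlap.

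The members were not uniform. The 7 groups found by clustering are described by leading genes with no cell type name, since the clustering used those genes. The first (92 cells) was led by Spp1, Alb, Dscam and Fabp5, of which Spp1 was at 76.7 CPM in Crtc2-/- and 486 CPM in Crtc2+/+ T cells. The second (72) was led by Clec10a, Clec4b1, Mrc1 and Cd209a, and the third (70) by Lyz2, Gda, F13a1 and Cebpb. The fourth (60) was led by Cd7, Cd300c and Gria3, and the fifth (35) by Epcam, Itgae, Qpct and Tgfbr1. The last ones were led by the mitotic genes Top2a, Birc5 and Cenpf (28) and by Ifit3, Cxcl10 and Isg15 (22). In this order the groups held 70 Crtc2-/- and 22 Crtc2+/+ cells, 60 Crtc2-/- and 12 Crtc2+/+ cells, 50 Crtc2-/- and 20 Crtc2+/+ cells, 46 Crtc2-/- and 14 Crtc2+/+ cells, 4 Crtc2-/- and 31 Crtc2+/+ cells, 18 Crtc2-/- and 10 Crtc2+/+ cells, and 7 Crtc2-/- and 15 Crtc2+/+ cells. These counts show where each genotype's members lie. They are no result of their own, because the genes that define the groups differ between the genotypes. Lyz2 was at 10530.3 CPM in the third group against 574 CPM in the other members, and Epcam at 494 CPM in the fifth against 64.0 CPM.

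Split by the lectins of the rule, the members with Clec10a alone had the most Lyz2, a description since the rule used both genes. Cd209a without Clec10a was found in 77 Crtc2-/- and 53 Crtc2+/+ members, Clec10a alone in 33 Crtc2-/- and 18 Crtc2+/+, and both in 145 Crtc2-/- and 53 Crtc2+/+ members. Members with Clec10a alone had Lyz2 at 12817 CPM in Crtc2-/- and 2856 CPM in Crtc2+/+, against 821 CPM in Crtc2-/- and 740 CPM in Crtc2+/+ members with Cd209a alone and 1356 CPM in Crtc2-/- and 1096 CPM in Crtc2+/+ members with both. Ly6c2 was at 755 CPM in Crtc2-/- and 151 CPM in Crtc2+/+ with Clec10a alone and at 67.5 CPM in Crtc2-/- and 46.8 CPM in Crtc2+/+ with Cd209a alone, with members carrying both at 94.4 CPM in Crtc2-/- and 52.6 CPM in Crtc2+/+. Epcam was at 7.29 CPM in Crtc2-/- and 278 CPM in Crtc2+/+ with Clec10a alone and at 31.2 CPM in Crtc2-/- and 287 CPM in Crtc2+/+ with Cd209a alone, beside 36.4 CPM in Crtc2-/- and 197 CPM in Crtc2+/+ with both.

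Set beside their neighbours, the members shared some differences with cDC1 and not others, without a test of any of them. Epcam was at 12.2 CPM in Crtc2-/- and 82.3 CPM in Crtc2+/+ cDC1, and Itgae at 112 CPM in Crtc2-/- and 340 CPM in Crtc2+/+. Ccl17 was at 0 CPM in Crtc2-/- and 71.8 CPM in Crtc2+/+ cDC1 and at 19.7 CPM in Crtc2-/- and 136 CPM in Crtc2+/+ mature dendritic cells. Tgfbr1 had log2 ratios of -1.61 in cDC1, -1.54 in mature dendritic cells and -1.04 in classical monocytes, beside -1.52 in the members. The type I interferon median was -0.64 in cDC1, -0.62 in mature dendritic cells and -0.71 in classical monocytes, beside -0.48 here. Id2 was near equal in cDC1, at 1441 CPM in Crtc2-/- and 1472 CPM in Crtc2+/+, and F13a1 in classical monocytes was at 499.6 CPM in Crtc2-/- and 411 CPM in Crtc2+/+. The CREB target median was 0.30 in cDC1 and -0.40 in classical monocytes.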

How the data were processed

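The authors' deposited tables give raw UMI counts for each gene in each barcode, 1 table per genotype. They came from Cell Ranger 7.1.0, per the file headers, on build mm10, per the submitters' processing notes, which also name Seurat. Use of intronic reads was not stated. The tables hold 9242 Crtc2-/- and 9707 Crtc2+/+ barcodes (median 6688 and 7195 UMIs), the lowest with 501 and 502.

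Kept barcodes had 500 UMIs or more, 250 genes or more and no more than 20% mitochondrial UMIs. The members and gene lists were chosen with earlier results of these data known. Scrublet (scanpy 1.11.5) called 2.98% and 2.74% of kept barcodes as doublets, under the expected 7.34% and 7.69%. The 7 and 2 members it called were kept, with an alternative without them.

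UMIs were summed over the members of a library, and genes with 20 UMIs over both gave a log2 ratio. Named were the 12 highest and 12 lowest eligible genes, up to 4 per list by size of ratio, the markers, the CRTC genes with Creb1, and the genes read at equal depth. Others were named after their values were seen, and 1 of the highest genes is not reported here. Mitochondrial, ribosomal, haemoglobin, antigen receptor, sex-linked and predicted genes and the genes of the rule were left out of the extremes. Other cell classes were cut by raw UMIs of marker genes. Coordinates are from GENCODE M21 (GRCm38), matched by identifier for 99.6% of features. Sub-clusters came from leidenalg 0.10.2. The ratios and intervals were tested on simulated data, drawn as independent Poisson counts. Such counts leave out UMIs that lie together in a few cells, so the simulation cannot show that the intervals hold for these data. Alternatives changed the pseudocount, the scaling, the filter on genes, the doublets, the mitochondrial limit and the rule. Software was numpy 2.4.6 and scipy 1.17.1 under Python 3.11.15, with pandas 2.3.3, matplotlib 3.10.9 and scikit-learn 1.9.0.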

Additional observations from a re-analysis of the deposited data

How the results depend on the processing

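With 1 library per genotype the precision is that of counting. No paired analysis was possible because each genotype has 1 library. The alternatives for members without a Ly6c2 UMI and without an Alb UMI were chosen after seeing the data. The causes of the shifts below were not tested, except where the alternative itself changes how many genes or cells are read.

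Genes at least 2-fold higher numbered 407 with a pseudocount of 1 CPM and 12 with 50 CPM, 47 as a mean of single cells, 348 in members free of C1q UMIs, 153 under the rule at 2000 UMIs and 46 with at least 100 UMIs. Genes at least 2-fold lower numbered 214 and 23 with the pseudocounts, 54 without Alb and 52 with at least 100 UMIs. The type I interferon median was -0.55 and -0.30 with the pseudocounts, -0.63 with at least 2 lectin UMIs, -0.13 without C1q, -0.59 under the rule at 2000 UMIs and -0.70 without Ly6c2. Pattern recognition genes had medians of 0.49 and 0.15 with the pseudocounts, 0.050 without C1q and -0.060 under the rule at 2000 UMIs. CREB target genes had -0.50 and -0.16 with the pseudocounts, -0.50 without C1q, -0.71 without Ly6c2, -0.66 with at least 100 UMIs and -0.15 with at least 1 UMI. Monocyte markers had 0.65 and 0.25 with the pseudocounts, 0.21 under the rule at 2000 UMIs and 0.10 without Ly6c2. The log2 ratio of shares was 1.11 as reported, 0.38 without macrophages, 0.093 among dendritic cells, 2.09 without C1q and 1.80 under the rule at 2000 UMIs.

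Signs turned in these cases. Under the rule at 2000 UMIs the medians were 0.017 for chemokines, -0.26 for interferon gamma response genes and 0.36 for the cell cycle, and the log2 ratios were 0.044 for Tnf, 0.22 for Egr1 and -0.27 for Pparg. Without C1q they were 0.96 for the cell cycle, 0.018 for glycolysis, 0.0059 for oxidative phosphorylation and 0.075 for Tnf. MHC class II was 0.0021 as a mean of single cells and 0.063 without Ly6c2. With at least 100 UMIs interferon gamma genes were at -0.057 and cytokine receptors at -0.013, and with at least 1 UMI interferon gamma genes were at -0.022.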
